A study of Mus musculus with 23 samples.

Results

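The pancreatic-type lipases and phospholipases A2 described here are 7 genes, Pnliprp1, Pnliprp2, Pnlip, Clps, Cel, Pla2g4c and Pla2g2a, measured in mouse colon by expression array. The family was put together by name with earlier results of these arrays in view, and each gene was then followed through every probe set that the platform annotation assigns to it alone. These came to 9 probe sets of 45101 on the array, and they gave 6 of the 7 genes a value, out of 18194 genes in all. Pnlip, pancreatic lipase itself, is unnamed among the annotated probe sets and has no value here. Where a gene had more than 1 probe set, the one with the highest mean over the 23 arrays gave its main value. The members were chosen from earlier results of these arrays, among them the increases of Pnliprp2, Clps and Pla2g2a with TNBS, so the changes of the members are given as descriptions, each with the p-value of a fit across all genes.

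All mice were BALB/c, and the samples were total RNA of whole colon. The groups were Fn14 knockout mice with TNBS (KO TNBS, 7 arrays), Fn14 knockout mice without it (KO, 5 arrays), wild-type mice with TNBS (WT TNBS, 6 arrays) and wild-type mice without it (WT, 5 arrays). Fn14 is the receptor of the cytokine TWEAK and is encoded by Tnfrsf12a. TNBS, a hapten that causes colitis, was given rectally at 0.2% in a mixture of PBS and ethanol over 6 weeks, in volumes scaled to body weight that increased between 1 and 2 μl per g, and colons were collected 3 days after dosing ended. Whether untreated mice received ethanol, whether each array is a separate mouse, and how the knockout allele was made are not stated in the labels. The p-values therefore measure the spread between these samples.

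Pancreatic lipase and its relatives are secreted by pancreatic acinar cells and split dietary fat in the gut lumen, where colipase holds the lipase on the fat droplet and the bile salt-stimulated lipase encoded by Cel adds a broader activity. Phospholipases A2 release a fatty acid, often arachidonic acid, and a lysophospholipid from membrane phospholipids. The secreted group IIA enzyme, encoded by Pla2g2a, also kills bacteria and is a product of Paneth cells of the small intestine, while the enzyme encoded by Pla2g4c is an intracellular member of the cytosolic group that does not need calcium.

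The family lies on 5 chromosomes in the RefSeq annotation of mouse assembly GRCm38.p6. Pnlip, Pnliprp1 and Pnliprp2 are neighbours in this order on chromosome 19, Clps is on 17, Cel on 2, Pla2g4c on 7 and Pla2g2a on 4. Pla2g2a is annotated there as a transcribed pseudogene, since the assembly is of C57BL/6J mice, whose gene is disrupted, whereas BALB/c mice carry an intact gene. Promoter windows from 250 bases before to 50 bases after the start of transcription were matched by symbol to RefSeq's sequences for 5 of the 7 genes. Those of Pnliprp2 and its neighbour Pnliprp1 are shown because the values of these adjacent genes differed in pattern, those of Pla2g4c because that gene rose alongside Pnliprp2, and that of Cel because its values followed acinar genes. Capitals mark matches on either strand to TTCNNNNGAA, the spacing preferred by STAT6, and to CACCTG, a form of the E-box bound by basic helix-loop-helix factors.
Pnliprp2, chr19:58759473-58759772, plus strand: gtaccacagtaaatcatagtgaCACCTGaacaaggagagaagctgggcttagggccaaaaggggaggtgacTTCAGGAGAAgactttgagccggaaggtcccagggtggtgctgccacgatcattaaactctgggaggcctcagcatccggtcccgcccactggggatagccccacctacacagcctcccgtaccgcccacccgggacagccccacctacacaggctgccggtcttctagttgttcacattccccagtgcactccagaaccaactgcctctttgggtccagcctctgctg
Pnliprp1, chr19:58728637-58728936, plus strand: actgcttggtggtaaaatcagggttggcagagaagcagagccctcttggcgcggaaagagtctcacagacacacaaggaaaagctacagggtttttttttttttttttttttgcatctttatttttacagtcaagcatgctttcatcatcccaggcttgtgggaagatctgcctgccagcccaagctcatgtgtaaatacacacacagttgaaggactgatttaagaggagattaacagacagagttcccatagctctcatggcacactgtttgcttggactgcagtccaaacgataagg
Pla2g4c, first start, chr7:13325417-13325716, plus strand: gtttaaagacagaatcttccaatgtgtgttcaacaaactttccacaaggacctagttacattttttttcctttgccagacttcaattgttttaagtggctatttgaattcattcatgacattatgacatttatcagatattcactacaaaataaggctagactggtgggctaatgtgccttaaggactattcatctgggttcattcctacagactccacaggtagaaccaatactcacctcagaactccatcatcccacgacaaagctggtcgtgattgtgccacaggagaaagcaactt
Pla2g4c, second start, chr7:13329072-13329371, plus strand: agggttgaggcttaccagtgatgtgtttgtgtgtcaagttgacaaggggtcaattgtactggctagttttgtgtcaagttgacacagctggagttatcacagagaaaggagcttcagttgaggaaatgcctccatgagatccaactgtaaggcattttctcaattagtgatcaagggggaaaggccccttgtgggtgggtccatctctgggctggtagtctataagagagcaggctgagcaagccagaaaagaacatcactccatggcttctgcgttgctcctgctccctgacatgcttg
Cel, chr2:28563354-28563653, minus strand: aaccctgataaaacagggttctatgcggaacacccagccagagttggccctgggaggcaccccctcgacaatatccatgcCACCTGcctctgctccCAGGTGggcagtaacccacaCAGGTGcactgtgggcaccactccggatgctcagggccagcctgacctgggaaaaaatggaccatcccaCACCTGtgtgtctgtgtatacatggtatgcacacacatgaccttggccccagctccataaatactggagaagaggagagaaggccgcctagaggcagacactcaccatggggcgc
The Pnliprp2 window held 1 match to the STAT6-type motif, TTCAGGAGAA at bases -179 to -170 from the start site, and 1 E-box at -228 to -223. The Cel window held 4 E-boxes, on both strands, and no STAT6-type motif. The windows of Pnliprp1, Pnlip and Pla2g4c held neither. Of 32851 mouse promoter windows of the same length, 6.95% held TTCNNNNGAA and 20.2% held CACCTG. The related spacing TTCNNNGAA, present in 8.3% of windows, was in none of the windows of these 5 genes. Clps and Pla2g2a had no window and were not searched. These matches share no base with each other and describe letters only.

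The deposited values are on a log2 scale, on which a difference of 1 is a 2-fold change. The lowest value of the series was 2.17, and 30.5% of all values lay on it, so a gene at 2.17 is at the floor of the scale and has no measured level. Array intensities of different probe sets are not comparable as amounts, so each gene is compared with itself. The targeted gene checked the labels: Tnfrsf12a averaged 4.06 ± 0.11 on KO TNBS arrays (SD, n = 7) and 7.35 ± 0.51 on WT TNBS arrays (SD, n = 6), and 4.11 ± 0.06 on KO arrays and 6.65 ± 0.52 on WT arrays (SD, n = 5 each). Markers of colon epithelium had a mean log2 value between 12.66 and 13.02 on all 23 arrays.

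Before the members are described, 3 arrays have to be set apart. Of 29 markers of pancreatic acinar cells, 21 were measured, and their mean log2 value was 7.19 on WT TNBS array 3, 8.82 on WT TNBS array 6 and 6.05 on KO array 5, against 4.95 to 5.23 on the other 20 arrays. The number of these markers above the floor was 18, 18 and 15 on the 3 arrays, against 9 to 10 elsewhere. Chymotrypsinogen B, Ctrb1, read 9.73, 12.46 and 6.93 on the 3 arrays and was at the floor on the other 20. The trypsinogen gene Prss2 read 8.82, 11.17 and 5.79, and carboxypeptidase A1, Cpa1, read 8.05, 10.39 and 2.65, both again at the floor on the other 20. In all, 11 of the 21 markers were higher on both WT TNBS arrays than on any of the 20, and 8 were higher on all 3 arrays. The acinar transcription factor gene Ptf1a was at the floor on every array. Another 5 markers, Cela1, Sycn, Klk1, Spink1 and Nr5a2, were above log2 7 on every array, and these made up most of the summed linear signal of the list, which ranged from 40250 to 47109 on KO TNBS arrays, 43325 to 48796 on KO arrays, 38654 to 62001 on WT TNBS arrays and 37666 to 49557 on WT arrays. In bulk colon, fewer cells of a type and less RNA per cell cannot be told apart. Member results that gain or lose a call without these 3 arrays are given both ways below.

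**Figure D1:**
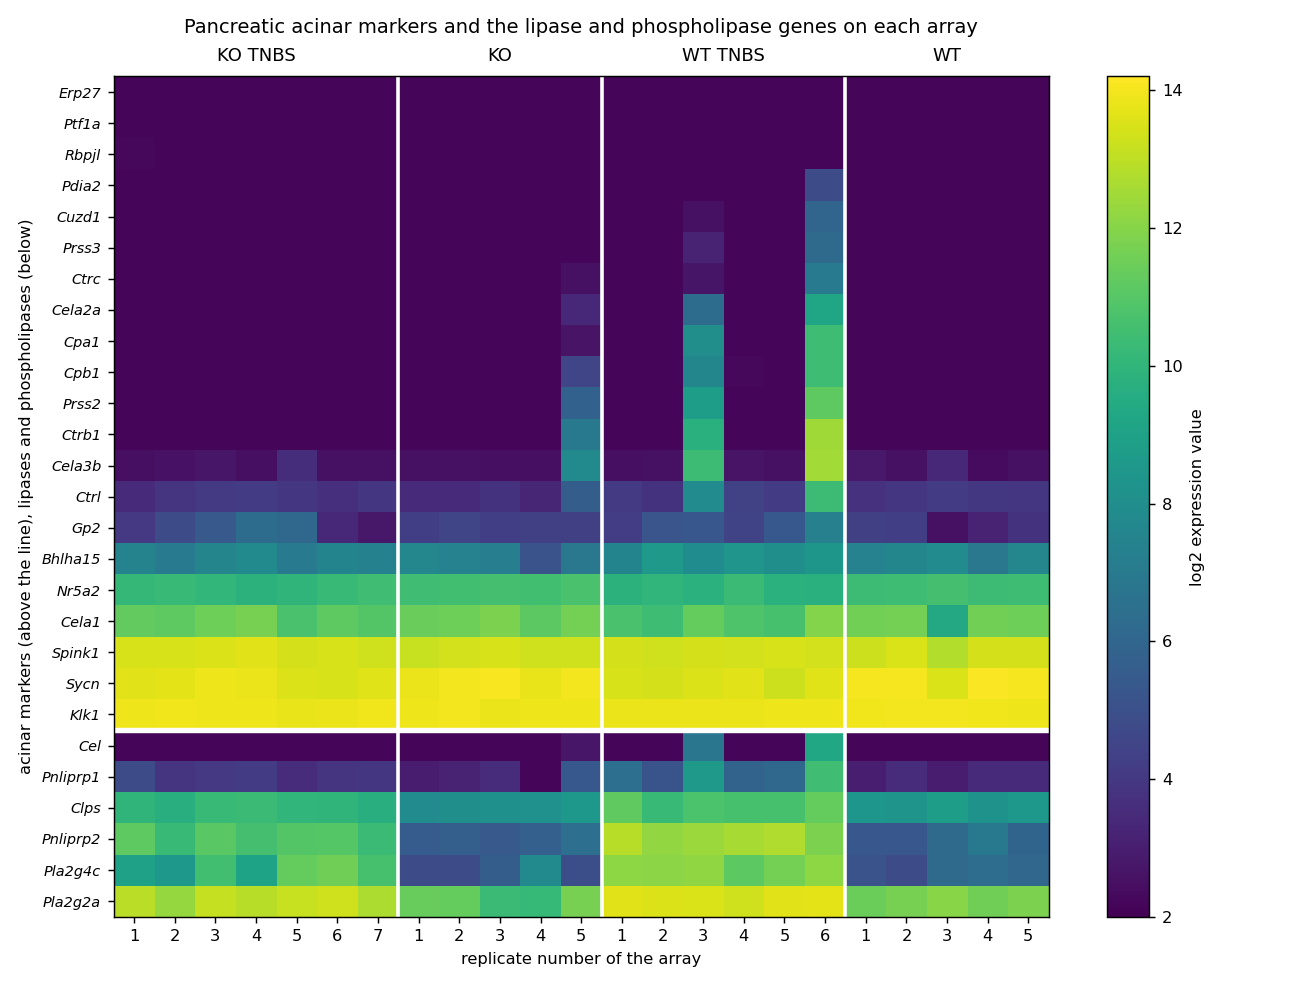
Log2 expression values of 21 pancreatic acinar markers (above the white line) and the 6 measured lipase and phospholipase A2 genes (below it) on each of the 23 arrays, grouped as KO TNBS, KO, WT TNBS and WT. Cel and 11 acinar markers are highest on WT TNBS arrays 3 and 6, whereas Pnliprp2, Clps, Pla2g4c and Pla2g2a are high on all TNBS arrays.

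With TNBS, 4 of the 6 measured members rose in Fn14 knockout colon and 5 of 6 rose in wild-type colon, at an adjusted p under 0.05 (limma, Benjamini-Hochberg over 18194 genes). Over all genes, 8.55% passed in the knockout comparison and 16.5% in the wild-type comparison, of which 4.08% and 10.2% of all genes were higher. The median change of the members was 1.89 in the knockout and 3.07 in the wild type on the log2 scale, against 0 over all genes in both. Pnliprp2 and Pla2g4c moved most, and Cel passed in neither genotype. No member fell with TNBS in either genotype. Where groups of arrays are said below not to overlap, the share of all genes that separate likewise was not counted. With the 3 acinar arrays left out, a setting chosen after seeing the data, 5 of 6 members passed in each genotype. Pnliprp1 was the added one in the knockout.

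**Figure D2:**
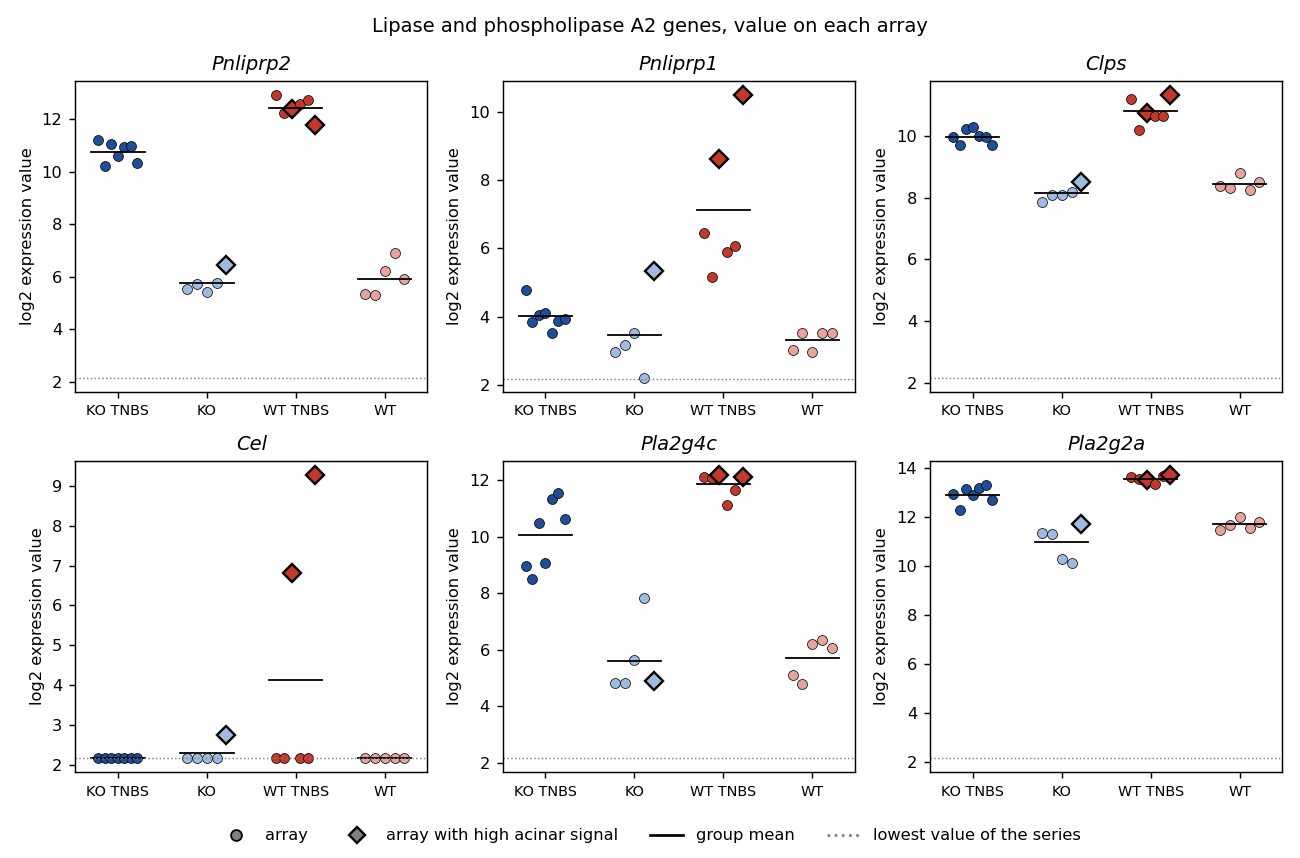
Log2 expression value of each measured lipase and phospholipase A2 gene on every array (y axis), by group (x axis). Points are arrays, diamonds are the 3 arrays with high acinar signal, horizontal bars are group means and the dotted line is the lowest value of the series, 2.17. Pnliprp2, Clps, Pla2g4c and Pla2g2a show no overlap between TNBS and untreated arrays of a genotype, and Pnliprp1 shows none in the wild type. The share of all genes without such overlap was not counted.

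Pnliprp2, pancreatic lipase-related protein 2, splits galactolipids and phospholipids as well as fat, and was first cloned in the mouse as a transcript that interleukin 4 induces in cytotoxic T cells. On KO TNBS arrays its value ran between 10.2 and 11.19 with a median of 10.94, against 5.54, 5.71, 5.41, 5.76 and 6.45 on the 5 KO arrays. On WT TNBS arrays it ran between 11.78 and 12.91 with a median of 12.48, against 5.33, 5.31, 6.21, 6.91 and 5.91 on the 5 WT arrays. All TNBS arrays of both genotypes lay far above all untreated arrays, and the KO TNBS arrays lay below every WT TNBS array. The increase was 4.98 ± 0.27 log2 units in the knockout (SE, 31.5-fold, adjusted p = 3.77e-10) and 6.51 ± 0.28 in the wild type (SE, 90.9-fold, adjusted p = 3.2e-12). By size these ranked 7 and 5 among the changes of all 18194 genes. Without the 3 arrays with acinar signal the increases were 5.15 ± 0.27 and 6.69 ± 0.29. Of these 3 arrays, WT TNBS array 6 had the lowest Pnliprp2 value of its group, 11.78, and KO array 5 the highest, 6.45. WT TNBS array 3 read 12.37, inside the range of its group. The part of acinar signal in these values was not tested.

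Pnliprp1 encodes a close relative of pancreatic lipase that has little or no activity on fat by itself. Its values were low outside the WT TNBS group. On KO TNBS arrays they ran between 3.53 and 4.78 with a median of 3.92, and on KO arrays they were 2.98, 3.18, 3.53, 2.22 and 5.35. On the 6 WT TNBS arrays they were 6.45, 5.17, 8.6, 5.9, 6.06 and 10.48, against 3.02, 3.53, 2.98, 3.52 and 3.52 on the 5 WT arrays. The highest readings, 8.6 and 10.48, were on WT TNBS arrays 3 and 6, and the highest untreated reading, 5.35, was on KO array 5, the same 3 arrays on which acinar markers stood apart. The other 4 WT TNBS arrays still lay above every WT array and every KO TNBS array. Over all arrays Pnliprp1 changed by 0.56 ± 0.69 in the knockout (SE, adjusted p = 0.765) and rose by 3.79 ± 0.71 in the wild type (SE, 13.9-fold, adjusted p = 0.00103). Leaving out the 3 arrays was a setting chosen after seeing the data. It gave changes of 1.04 ± 0.27 in the knockout (SE, adjusted p = 0.0295) and 2.58 ± 0.29 in the wild type (SE, adjusted p = 3.15e-05). The knockout call was made under this setting only, 1 of 37 alternatives. Leaving out 1 array at a time gave adjusted p-values of at least 0.438 in limma.

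Clps encodes colipase, the cofactor that pancreatic lipases need in the presence of bile salts. Its value ran between 9.7 and 10.31 on KO TNBS arrays with a median of 9.97, against 7.88, 8.08, 8.1, 8.19 and 8.5 on KO arrays. It ran between 10.2 and 11.33 on WT TNBS arrays with a median of 10.7, against 8.39, 8.33, 8.81, 8.25 and 8.51 on WT arrays. TNBS and untreated arrays did not overlap in either genotype, and untreated colon was already well above the floor. The increase was 1.83 ± 0.17 in the knockout (SE, 3.57-fold, adjusted p = 9.8e-07) and 2.34 ± 0.17 in the wild type (SE, 5.07-fold, adjusted p = 2.25e-08). With the 3 arrays with acinar signal left out the increases were 1.92 ± 0.16 and 2.22 ± 0.17. The part of acinar signal in the Clps values was not tested. WT TNBS array 6 and KO array 5 had the highest Clps values of their groups, 11.33 and 8.5, and WT TNBS array 3 read 10.75.

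Cel, the bile salt-stimulated lipase, behaved unlike the other lipases. It was at the floor on all 7 KO TNBS arrays, on 4 of 5 KO arrays, on 4 of 6 WT TNBS arrays and on all 5 WT arrays. Its 3 readings above the floor were 2.75 on KO array 5, 6.81 on WT TNBS array 3 and 9.27 on WT TNBS array 6. The secreted pancreatic phospholipase A2 gene Pla2g1b, singled out after its values were seen, read 4.44 and 7.66 on WT TNBS arrays 3 and 6 and was at the floor on KO array 5 and on the other 20 arrays. The fitted change of Cel was -0.12 ± 0.93 in the knockout (SE, adjusted p = 1) and 1.96 ± 0.96 in the wild type (SE, adjusted p = 0.196), and without the 3 arrays Cel was at the floor throughout.

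Pla2g4c encodes the cytosolic phospholipase A2 gamma. On KO TNBS arrays its value was spread between 8.52 and 11.56 with a median of 10.51, against 4.81, 4.82, 5.62, 7.84 and 4.91 on KO arrays. On WT TNBS arrays it was tightly placed between 11.12 and 12.18 with a median of 12.11, against 5.1, 4.77, 6.2, 6.36 and 6.05 on WT arrays. The groups with and without TNBS did not overlap, although KO array 4, at 7.84, came within 1 unit of the lowest KO TNBS array. The increase was 4.49 ± 0.57 in the knockout (SE, 22.4-fold, adjusted p = 9.74e-05) and 6.19 ± 0.59 in the wild type (SE, 72.9-fold, adjusted p = 8.34e-07), ranking 13 and 7 among all genes. Leaving out the acinar arrays gave 4.32 ± 0.65 and 6.05 ± 0.70.

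Pla2g2a encodes the secreted group IIA phospholipase A2. It read between 12.28 and 13.31 on KO TNBS arrays with a median of 12.93, against 11.37, 11.32, 10.31, 10.15 and 11.71 on KO arrays. It read between 13.34 and 13.71 on WT TNBS arrays with a median of 13.6, against 11.46, 11.69, 12.02, 11.56 and 11.8 on WT arrays. Every TNBS array was above every untreated array of either genotype, and KO arrays 3 and 4 were the lowest of the series. Among the arrays with acinar signal, WT TNBS array 6 and KO array 5 were the highest of their groups, at 13.71 and 11.71. WT TNBS array 3 read 13.53. The increase was 1.95 ± 0.23 in the knockout (SE, 3.86-fold, adjusted p = 3.36e-05) and 1.87 ± 0.24 in the wild type (SE, 3.66-fold, adjusted p = 2.17e-05). The difference between these increases was 0.08, with a 95% confidence interval from -0.61 to 0.76 and an adjusted p of 1. This interval leaves room for a difference in either direction.

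**Figure D3:**
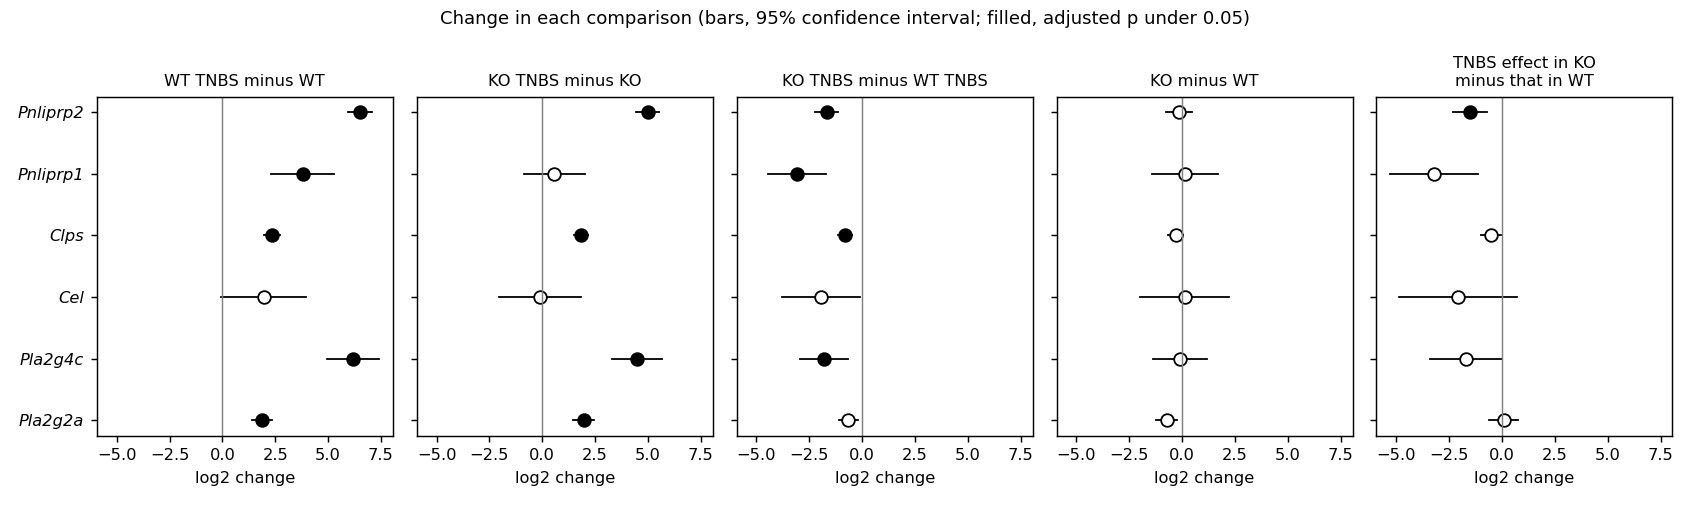
Log2 change of each measured gene (points) with its 95% confidence interval (bars) in the 5 comparisons. All panels share the x axis, and filled points have an adjusted p under 0.05. The TNBS effects lie right of 0 for Pnliprp2, Clps, Pla2g4c and Pla2g2a in both genotypes, and the knockout values with TNBS lie left of 0 for Pnliprp2, Pnliprp1, Clps and Pla2g4c.

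Under TNBS, 4 of the 6 measured members were lower in Fn14 knockout than in wild-type colon and none was higher, where 10.5% of all genes passed and 6.72% were lower. The median difference of the members was -1.74, against 0 over all genes. With the 3 acinar arrays left out, 3 of 6 passed, Pla2g4c being the one lost. Pnliprp1 was lower, with a difference of -3.10 ± 0.66 log2 units (SE, 8.54-fold, adjusted p = 0.00481), with KO TNBS arrays between 3.53 and 4.78 and WT TNBS arrays between 5.17 and 10.48. The difference was -1.69 ± 0.26 for Pnliprp2 (SE, 3.22-fold, adjusted p = 0.000355) and -0.82 ± 0.16 for colipase (SE, 1.76-fold, adjusted p = 0.00252). The Clps arrays of the genotypes overlapped slightly, since KO TNBS arrays 3 and 4, at 10.22 and 10.31, exceeded the lowest WT TNBS reading, 10.2. On the arrays without acinar signal, the difference of Pnliprp1 was -1.88 ± 0.27 (adjusted p = 0.000757), that of Pnliprp2 -1.87 ± 0.27 (adjusted p = 0.00077) and that of Clps -0.70 ± 0.16 (adjusted p = 0.0163).

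Among the phospholipases, Pla2g4c was lower in KO TNBS than in WT TNBS colon, with a difference of -1.80 ± 0.54 (SE, 3.48-fold, adjusted p = 0.0394). KO TNBS arrays 5 and 6, at 11.34 and 11.56, lay within the WT TNBS range, and KO TNBS arrays 1, 2 and 4, at 8.96, 8.52 and 9.06, lay well below it. This call sat close to the threshold. Leaving out WT TNBS array 1, 2, 3, 5 or 6, or KO TNBS array 1, 2 or 4, gave adjusted p-values between 0.0613 and 0.0852. The differences then lay between -1.84 and -1.54. Leaving out the 3 arrays with acinar signal gave an adjusted p of 0.148 with a difference of -1.66. The second probe set of Pla2g4c is described below. Pla2g2a differed by -0.66 ± 0.22 (SE, adjusted p = 0.0598) and passed when KO array 3, 4 or 5 or KO TNBS array 6 was left out, with adjusted p-values between 0.0315 and 0.0493. Its KO TNBS readings, between 12.28 and 13.31, were all under the lowest WT TNBS reading of 13.34.

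Without TNBS, none of the 6 members differed between Fn14 knockout and wild-type colon at an adjusted p under 0.05 in limma, where 4.83% of all genes did. At an unadjusted p under 0.05 the count was 1, Pla2g2a, with a difference of -0.73 ± 0.25 (SE, unadjusted p = 0.00757, adjusted p = 0.0919). Without KO array 5 that difference was -0.92 with an adjusted p of 0.0336, and without all 3 acinar arrays -0.92 with an adjusted p of 0.0504. The difference was -0.16 for Pnliprp2, with a 95% confidence interval from -0.77 to 0.45, and -0.10 for Pla2g4c, with an interval from -1.39 to 1.20. Pnliprp1 differed by 0.14, with an interval from -1.42 to 1.69, and by -0.34 without KO array 5. These intervals do not show that the genotypes were alike.

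The TNBS effect itself was tested between genotypes as an interaction, and 1 of the 6 members passed, where 2% of all genes did. The increase of Pnliprp2 was smaller in the knockout, with a difference of -1.53 ± 0.39 log2 units (SE, 95% confidence interval from -2.34 to -0.72, adjusted p = 0.0459). The call sat close to the threshold, and leaving out 16 of the 23 arrays 1 at a time ended it, with adjusted p-values up to 0.0922. In all, 23 of 37 alternatives ended it. Without the 3 arrays with acinar signal the difference was -1.54 with an adjusted p of 0.0641. The difference was -3.23 ± 0.99 for Pnliprp1 (adjusted p = 0.0952), -0.51 ± 0.24 for Clps (adjusted p = 0.308) and -1.70 ± 0.82 for Pla2g4c (adjusted p = 0.327). With those arrays left out it was -1.54 ± 0.39 for Pnliprp1 (adjusted p = 0.0641), -0.30 ± 0.24 for Clps (adjusted p = 0.662) and 0.28 ± 0.34 for Pla2g2a (adjusted p = 0.806). The comparisons above share groups of arrays, so they are not separate evidence of a pattern.

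Pnliprp2, Clps and Pla2g4c each had a second probe set, which the main values did not use but which came from the same arrays. The second probe set of Pnliprp2 averaged 10.24 ± 0.34 on KO TNBS arrays and 5.14 ± 0.54 on KO arrays, and 11.94 ± 0.34 on WT TNBS arrays and 5.64 ± 0.56 on WT arrays (SD). That of Clps averaged 9.2 ± 0.26 on KO TNBS arrays and 7.33 ± 0.17 on KO arrays, and 10.06 ± 0.41 on WT TNBS arrays and 7.55 ± 0.22 on WT arrays (SD). Over the comparisons, the changes of the second probe set differed from those of the main one by at most 0.335 log2 units for Pnliprp2 and 0.17 for Clps. Adjusted over all 45101 probe sets, the interaction of Pnliprp2 was -1.53 on the main probe set (adjusted p = 0.0609) and -1.21 on the other (adjusted p = 0.118).

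The 2 probe sets of Pla2g4c differed. The second one was at or close to the floor on all untreated arrays of both genotypes, at most 2.35. KO TNBS arrays 1, 2 and 4 were also close to the floor, at 2.35, 2.37 and 2.37. KO TNBS arrays 3, 5, 6 and 7 read 3.92, 4.44, 4.26 and 4.07, and the 6 WT TNBS arrays read 7.66, 7.3, 6.92, 5.27, 6.19 and 6.94. Genotypes with TNBS did not overlap on this probe set, whereas they did on the main one. The difference there was -1.80 (adjusted p over all probe sets = 0.0445 in limma), and on the second probe set it was -3.31 ± 0.39 (SE, adjusted p = 3.75e-05). The change with TNBS was 1.21 ± 0.41 in the knockout (SE, adjusted p over all probe sets = 0.095) and 4.45 ± 0.42 in the wild type (SE, adjusted p = 1.33e-06), and its interaction was -3.25 ± 0.59 (SE, adjusted p = 0.0132) against -1.70 ± 0.82 on the main probe set. Values on the floor hide part of a change, so the size of these differences is uncertain. Which transcripts of Pla2g4c each probe set reads was not examined.

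**Figure D4:**
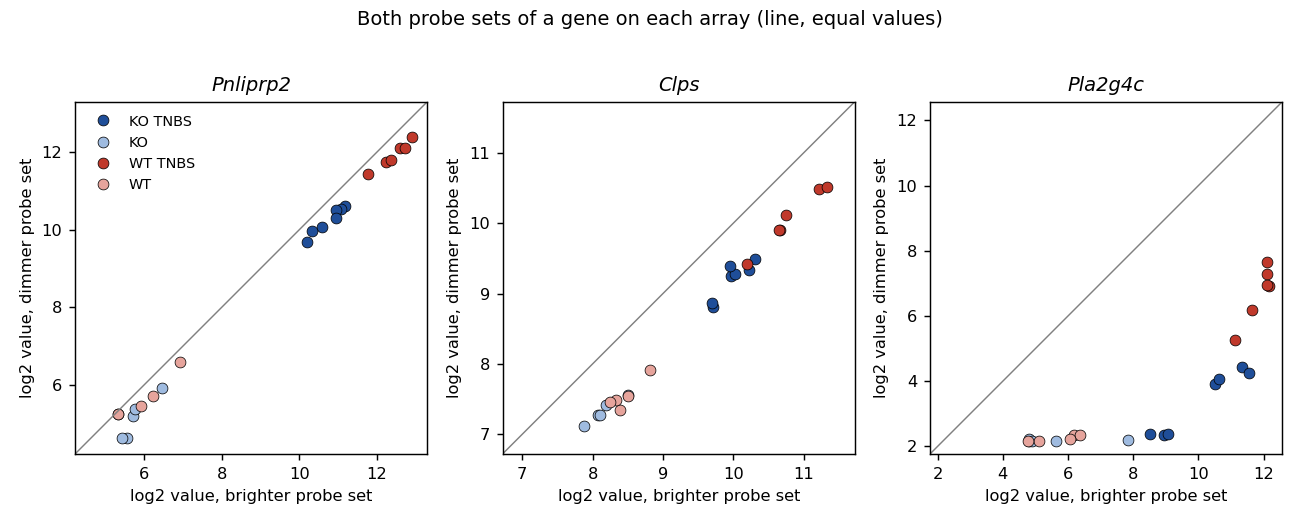
Log2 value of the probe set with the higher mean (x axis) against that with the lower mean (y axis) of Pnliprp2, Clps and Pla2g4c. Points are arrays coloured by group, and the line marks equal values. The probe sets of Pnliprp2 and Clps run parallel to the line, whereas the second one of Pla2g4c stays near 2.17 to 2.37 until the first passes about 10.

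The genes closest in pattern to each member were taken as the 4 with the highest Pearson r over the 23 arrays among 13799 genes above the floor on at least 12 arrays. These correlations describe arrays that share their groups, and they carry no test. For Pnliprp2 they were the mast cell carboxypeptidase Cpa3 (r = 0.985), Clca2 (0.985), Rnase2a (0.98) and the mast cell protease Mcpt4 (0.979). For Clps they were Cpa3 (0.969), Ceacam13 (0.962), Mcpt4 (0.962) and the IgE receptor chain gene Fcer1a (0.961). Cpa3 averaged 6.83 on KO TNBS and 2.20 on KO arrays, and 8.58 on WT TNBS and 2.58 on WT arrays. For Pla2g4c they were Steap4 (0.967), the gasdermin C-like genes Gsdmcl2 (0.967) and Gsdmcl-ps (0.965), and Padi4 (0.961). For Pla2g2a they were Pmepa1 (0.962), Gadd45g (0.953), the mucosal pentraxin Mptx1 (0.939) and Capg (0.939). For Pnliprp1 they were Loxl4 (0.901), Aldh1l2 (0.895), Calu (0.894) and Ccl24 (0.89), with Spearman's rho of 0.883, 0.601, 0.761 and 0.823. Over the 20 arrays without acinar signal, a setting chosen after seeing the data, r was 0.876, 0.756, 0.888 and 0.866 for these genes.

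Markers of several cell types moved in the same comparisons as the family, and their part in the members' changes was not tested. Over all genes, 8.55% passed with TNBS in the knockout and 16.5% in the wild type, and 4.08% and 10.2% were higher. Between genotypes, 10.5% passed with TNBS, 6.72% being lower in the knockout, and 4.83% passed without TNBS. Of 12 mast cell markers, 9 rose and 1 fell with TNBS in the knockout and 10 rose in the wild type, 8 were lower in KO TNBS than in WT TNBS, and their summed linear signal ranged from 8781 to 12653 on KO TNBS arrays, 582 to 764 on KO arrays, 16958 to 23460 on WT TNBS arrays and 601 to 814 on WT arrays. Of 12 measured genes known to respond to interleukins 4 and 13 in epithelium, 6 rose with TNBS in the knockout and 8 in the wild type, and 6 were lower in KO TNBS than in WT TNBS. Retnlb, which encodes a resistin-like protein of goblet cells, rose by 1.78 ± 0.17 in the knockout and by 1.79 ± 0.17 in the wild type, and Alox15 rose by 2.27 ± 0.23 in the wild type. Of 14 goblet cell markers, 6 rose in each genotype and 2 fell in the wild type. Against the wild type, 4 were lower in KO TNBS and 2 in KO colon. Retnlb, Clca1, Ang4 and Itln1, among those that rose, are also on the interleukin list, so the counts of these lists are not separate. Of 7 measured Paneth cell markers, the list closest to Pla2g2a, the 2 that rose in both genotypes were Ang4 and Itln1, which goblet cells also make. Of 9 cytotoxic lymphocyte markers, 4 rose in the knockout and 5 rose and 1 fell in the wild type, with granzyme B, Gzmb, higher by 2.55 ± 0.27 in the knockout and by 1.95 ± 0.28 in the wild type. Gzmb and Gzma were lower in KO TNBS than in WT TNBS colon (-1.93 ± 0.25 and -1.85 ± 0.29) and in KO than in WT colon (-2.53 ± 0.29 and -2.25 ± 0.34). Of 12 tuft cell markers, 3 were at the floor on all arrays. Avil, Alox5 and Il17rb rose with TNBS in the wild type and none of the 12 in the knockout. Alox5 and Il17rb were lower in KO TNBS than in WT TNBS, and Dclk1, Pou2f3 and Trpm5 passed in no comparison. Of 16 colon epithelium markers, 6 fell with TNBS in the knockout and 3 in the wild type, with median changes of -0.12 and -0.11. The wild-type count is near the share of all genes. None of 9 adipocyte markers passed in any comparison.

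Skeletal muscle markers also differed between genotypes without TNBS. Their summed linear signal ranged from 824 to 9157 on KO TNBS arrays, 1314 to 6060 on KO arrays, 128 to 5150 on WT TNBS arrays and 101 to 622 on WT arrays. Of 13 markers, 3 were higher in KO than in WT colon, Acta1, Tnnt3 and Atp2a1, and none with the 3 acinar arrays left out. The median difference of the 13 without TNBS was 3.01 log2 units, and 4.83% of all genes passed in that comparison. None passed between KO TNBS and WT TNBS, where the median difference was 1.82, or with TNBS in either genotype. The part of muscle signal in the members' differences between genotypes was not tested.

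Of the 21 measured acinar markers, none rose with TNBS at an adjusted p under 0.05 in either genotype, 1 fell in the knockout (Nr5a2) and 3 fell in the wild type (Sycn, Klk1 and Nr5a2, with changes of -0.45, -0.09 and -0.50 log2 units), and none differed between genotypes. Over all genes, 8.55% passed with TNBS in the knockout and 16.5% in the wild type. The mean of the acinar list was outside its usual range on the 3 arrays named above and within 4.95 to 5.23 on the others. The part of acinar signal in the members' changes was not tested. Squamous epithelium markers also moved with TNBS: 3 of 14 rose in the knockout and 5 in the wild type, where 4.08% and 10.2% of all genes rose. Their summed linear signal ranged from 380 to 6981 on KO TNBS arrays and 204 to 1493 on KO arrays. It ranged from 508 to 3563 on WT TNBS arrays and 166 to 429 on WT arrays. The source of the squamous signal and its part in the members' changes were not tested.

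In the wider phospholipase A2 family, 25 other genes and relatives were measured. None of them passed with TNBS in the knockout, where 8.55% of all genes did, and 6 rose and 1 fell in the wild type, where 16.5% of all genes passed. Their median change in the wild type was 0.02, or -0.03 after median centring, against 0 and -0.05 over all genes. The secreted enzyme gene Pla2g2f rose by 1.75 ± 0.28 in the wild type (SE, adjusted p = 0.00021), where the knockout value was 0.67 ± 0.27 (adjusted p = 0.137). Pla2g7, which encodes the plasma platelet-activating factor acetylhydrolase, rose by 1.25 ± 0.31 in the wild type (adjusted p = 0.00867) with a knockout value of 0.08 ± 0.30 (adjusted p = 1), and the lysosomal enzyme gene Pla2g15 rose by 0.70 ± 0.12 (adjusted p = 0.000557). None of the 25 genes passed the interaction test, so a difference of these TNBS effects between genotypes was not shown. Between genotypes under TNBS, Pla2g15, Plaat3 and Pnpla7 were lower in the knockout, with differences of -0.52, -0.38 and -0.61 log2 units, and Pafah2 and Pnpla6 were higher by 0.31 and 0.24. Pla2g4a, the classical cytosolic enzyme that frees arachidonic acid, had changes of -0.19 ± 0.09 in the knockout and 0.02 ± 0.09 in the wild type, neither passing.

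**Figure D5:**
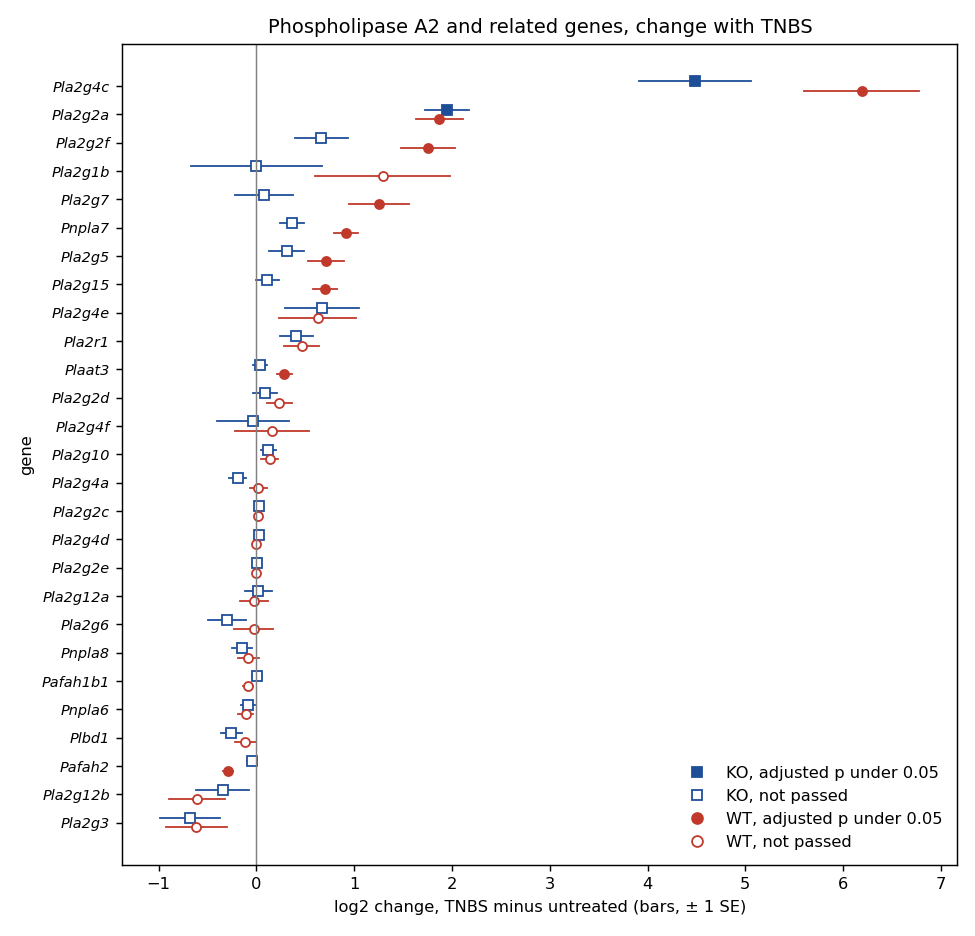
Log2 change with TNBS (x axis, points with bars of ± 1 SE) of Pla2g4c, Pla2g2a and 25 other phospholipase A2 and related genes (y axis) in the knockout (squares) and the wild type (circles). Filled symbols have an adjusted p under 0.05. Pla2g4c and Pla2g2a are the genes with filled symbols in both genotypes.

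Genes of other lipid steps were read against the same shares of all genes, 8.55% in the knockout and 16.5% in the wild type. Of 27 other neutral lipases and esterases measured, 2 fell with TNBS in the knockout, Ddhd1 and Ddhd2 (-0.31 and -0.22), and in the wild type 2 rose, Liph (0.36) and Ddhd2 (0.25), while Aadac fell by 0.86. The interaction passed for Ddhd1 (-0.50 ± 0.11, adjusted p = 0.0242) and Ddhd2 (-0.47 ± 0.10, adjusted p = 0.0151). Of 18 genes of fat uptake and chylomicron assembly, 2 fell with TNBS in the knockout. These were the fatty acid carrier gene Fabp1 (-5.49 ± 1.11, SE) and the lipid transfer gene Mttp (-2.01 ± 0.49, SE). Their wild-type changes were -3.10 ± 1.14 and -1.09 ± 0.51 (SE, adjusted p = 0.0721 and 0.165 in limma). Scarb1 and Acsl5 rose in the wild type by 0.38 and 0.21. All 18 genes failed the interaction test, so a difference of these TNBS effects between genotypes was not shown. Without the 3 arrays with acinar signal, 3 of these 18 fell in the knockout and none passed in the wild type.

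Of 16 measured genes that act on the arachidonic acid freed by phospholipases A2, 1 rose in the knockout, against 8.55% of all genes called, and 7 rose and 1 fell in the wild type, against 16.5%. Alox5ap, which presents arachidonic acid to 5-lipoxygenase, rose by 1.00 ± 0.19 in the knockout (adjusted p = 0.00312) and by 1.83 ± 0.20 in the wild type (adjusted p = 3.22e-06). Ptgs2, the inducible cyclooxygenase, rose by 0.81 ± 0.18 in the wild type (adjusted p = 0.00475), and Tbxas1, thromboxane synthase, by 1.16 ± 0.16 (adjusted p = 6.66e-05). Under TNBS 5 were lower in the knockout, among them Alox15 (-2.16 ± 0.21) and Tbxas1 (-1.18 ± 0.15), and Ptges2 was higher by 0.48 ± 0.06. The interaction passed for Alox15 (-2.04 ± 0.32, adjusted p = 0.00335) and Ptges2 (0.52 ± 0.10, adjusted p = 0.00909).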

How the data were processed

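Total RNA of colon was hybridised to Affymetrix mouse arrays, 23 in all. The values used are the log2 expression values that the authors deposited for each probe set. RMA and GCRMA are both named, without versions, per the submitters' processing notes. Which of these made the values, and their settings, are not given in the sources used here. Precision is limited by the number of arrays. Probe sets were named through the 2016 platform annotation: 34958 name 1 gene, 932 several and 9211 none, and 34754 were matched to RefSeq symbols (GRCm38.p6). The probe set with the highest mean over 23 arrays stood for a gene, which left 18194 genes. Values within 0.005 of 2.17 counted as the floor.

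A limma 3.58.1 fit (R 4.3.3; lmFit, eBayes) gave 1 mean to each of the 4 groups over all 23 arrays, and contrasts were adjusted by Benjamini-Hochberg over all genes. Members and gene lists were chosen with earlier results of these data known. Genes were named by rule: the members, Tnfrsf12a, the 4 genes with the most similar pattern to each member, up to 4 genes a list with the smallest p among those passing, and the acinar markers of highest mean. Names outside this rule, chosen after their values were seen, are Pla2g1b, Pla2g4a and those that show single markers or complete a small count. Replicate numbers are not stated to pair arrays. Across 31 same-numbered pairs of arrays, deviations from the group means correlated between -0.442 and 0.377, with 10 pairs over 0.1. These correlations do not settle whether arrays are paired, and the main fit used no pairing. Alternatives comprised other eBayes settings, filters, scalings, probe set rules, a replicate block and leaving out arrays. Figures were drawn with matplotlib 3.10.9.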

Additional observations from a re-analysis of the deposited data

Results flagged for a closer look

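Over 34 checks of groups of arrays, 2 held an array far from the rest of its group by Dixon's test. Chance alone gives about 1 in 20 where values are not tied, so this count is near that share. Cel read 2.75 on KO array 5, with the other 4 KO arrays at the floor of 2.17, and the same array had acinar markers above the floor. With those 4 arrays tied, any reading above the floor would have been flagged, whatever its size. Pla2g4c read 7.84 on KO array 4, where the nearest KO array read 5.62. Its second probe set read 2.19 on that array and at most 2.24 on the KO arrays. These values are at or near the floor, so that probe set could not show whether the array differed. The increase of Pnliprp2 with TNBS differed between genotypes by an interaction test, at -1.53 log2 units for the knockout effect minus the wild-type effect (adjusted p = 0.0459 in limma), and 23 of 37 alternatives, the replicate block, quantile normalization and array weights among them, lost that call.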

How the results depend on the processing

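Results were recomputed under 38 alternatives: 23 that leave out 1 array, 13 other planned ones, and 2 chosen after seeing the data that leave out the arrays with acinar signal. With TNBS, the number of members called was 4 to 5 under all of them in each genotype. For the knockout against the wild type with TNBS, it was 1 when a minimum change of 0.5 was required and 3 to 5 when 1 array was left out. Without TNBS it was 1 with genes of mean log2 under 5 left out, and 0 to 1 when 1 array was left out. For the difference of TNBS effects it was 0 under array weights, the mean of all probe sets, every probe set kept, quantile normalization, the minimum change and without the 3 arrays, and 0 to 1 when 1 array was left out.

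With the replicate block, the members called were 4 with TNBS in the knockout, 5 in the wild type, 3 between genotypes with TNBS, 0 without TNBS and 0 for the difference of effects. Pla2g4c then had an adjusted p of 0.0564 with TNBS, and Pnliprp2 0.0923 for the difference of effects; over all genes the calls were 1230 in place of 1902 and 172 in place of 363. Same-numbered arrays correlated best in 10 of 62 cases, which does not settle whether the numbers pair arrays. The other member calls were kept with the block. Between genotypes with TNBS, fitting both groups alone ended the call of Pla2g4c (adjusted p = 0.056) and made one of Pla2g2a (0.0234), which also passed under array weights (0.0426), with dim genes left out (0.0311) and with genes at the floor on all arrays left out (0.0478).

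The values that changed sign had passed no test. The TNBS change of Pnliprp1 in the knockout was -0.139 with values under log2 4 set to 4. Between untreated genotypes, leaving out 1 array gave -0.338 to 0.445 for Pnliprp1 (negative without KO array 5), -0.328 to 0.084 for Pnliprp2 (positive without WT array 4) and -0.657 to 0.10 for Pla2g4c (positive without WT array 3 or 4 or KO array 1, 2 or 5). Leaving out the 3 acinar arrays gave -0.338 for Pnliprp1 and 0.075 for Pla2g4c. The difference of Pla2g2a effects was -0.126 to 0.263, negative without KO array 3 or 4. Causes were not tested.

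Over all genes, median centring gave 1545 higher and 2018 lower with TNBS in the wild type in place of 1858 and 1140. Between untreated genotypes it gave 320 and 449, and quantile normalization 384 and 389, in place of 531 and 348. For the difference of effects they gave 135 and 192, and 137 and 192, in place of 113 and 250. With a minimum change of 0.5, all-gene calls were 73 in the knockout, 265 in the wild type, 40 and 32 between genotypes with and without TNBS, and 4 for the difference. Fitting each pair of groups alone gave 856 in the knockout and 288 between untreated genotypes. All 45101 probe sets gave 2402 and 5041 with TNBS, and 3971 and 1492 between genotypes. Without the 3 arrays, calls were 1982 in the wild type, 1173 between genotypes with TNBS and 202 for the difference; without only the 2 WT TNBS arrays, they were 1963, 1177 and 226. Leaving out 1 array moved counts past 1.5 times for WT array 1 (458 between untreated genotypes, 238 for the difference), KO array 4 (484 and 213) and KO array 3 (1014 in the knockout).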
